A study of Mus musculus with 6 samples.

Results

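The mevalonate arm is the stretch of cholesterol synthesis that turns acetyl-CoA into squalene. Its members here were chosen by name: Acat2, Hmgcs1, Mvk, Pmvk, Mvd, Idi1, Fdps and Fdft1, each read from the probe sets whose annotation names that gene alone. Of these 8 genes 7 could be measured, among 18193 genes on the arrays. The annotation used here pairs no probe set with Acat2, so its level was not analysed here. Liver RNA was measured on 6 Affymetrix mouse expression arrays, and the values are log2 levels that the authors made with RMA. All mice were male C57BL/6J, aged 8 weeks and kept on normal chow. The arrays form 3 groups of 2: fed wild-type mice, wild-type mice deprived of food for 24 h, and Cnot3+/- mice deprived of food for 24 h. Cnot3 is a subunit of CCR4-NOT, the complex that shortens the poly(A) tails of mRNAs. The labels give neither the deleted stretch of Cnot3 nor how the allele was made, and no fed Cnot3+/- mice were included.

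In the arm, Acat2 and Hmgcs1 build HMG-CoA from acetyl-CoA, and a reductase outside the member list then makes mevalonate. Mvk, Pmvk and Mvd phosphorylate and decarboxylate mevalonate to isopentenyl diphosphate, Idi1 isomerises that unit, Fdps joins the units to farnesyl diphosphate, and Fdft1 couples farnesyl diphosphate into squalene. In liver these genes are classic targets of the SREBP transcription factors, which Scap escorts from the endoplasmic reticulum for cleavage and Insig proteins hold back when sterols are plentiful. Farnesyl diphosphate also feeds protein prenylation, dolichol and ubiquinone.

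The array medians lay between 5.59 and 5.64, and a level at or under them was not shown to be above background. All 10 hepatocyte markers were above those medians, with a mean level from 14.38 to 14.63 on the 6 arrays, and the 2 measured exocrine pancreas markers were below them. The brightest Cnot3 probe set read 9.27 and 9.32 in fasted wild-type and 9.40 and 9.16 on the fasted arrays labelled Cnot3+/-, a log2 difference of -0.01 (95% interval -0.33 to 0.30). The position of this probe set relative to the deletion is not known, so it does not check the labels, and groups are called by their labels. With 2 arrays in each group, the number of arrays limits the precision of every value below.

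The start regions of the members are shown first, because SREBP works at such regions, together with NF-Y and Sp1. Whether these regions bear on the levels given below was not tested. RefSeq's table (GRCm38.p6) gave windows from 250 bases before to 50 bases after the start for 6 of the 8 members (Acat2, Hmgcs1, Mvk, Pmvk, Mvd and Idi1). Capitals mark the sterol element TCACNCCAC and the NF-Y box CCAAT, searched on both strands, and no capital stretch belongs to both motifs. The 4 windows with at least 2 NF-Y boxes are printed, each in the direction of its gene.
Hmgcs1 (chr13:119690101-119690400, plus strand): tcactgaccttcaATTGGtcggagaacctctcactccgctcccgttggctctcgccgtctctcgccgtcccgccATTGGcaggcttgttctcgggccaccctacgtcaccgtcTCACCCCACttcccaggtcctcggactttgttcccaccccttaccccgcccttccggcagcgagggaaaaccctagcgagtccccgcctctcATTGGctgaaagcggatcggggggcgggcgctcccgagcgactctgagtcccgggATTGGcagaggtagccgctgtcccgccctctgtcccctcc
Mvk (chr5:114444019-114444318, plus strand): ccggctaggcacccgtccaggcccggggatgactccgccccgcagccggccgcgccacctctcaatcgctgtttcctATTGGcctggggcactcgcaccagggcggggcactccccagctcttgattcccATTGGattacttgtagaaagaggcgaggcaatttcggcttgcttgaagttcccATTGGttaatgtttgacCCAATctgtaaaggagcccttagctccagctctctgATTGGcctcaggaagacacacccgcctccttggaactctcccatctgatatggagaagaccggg
Mvd (chr8:122443373-122443672, minus strand): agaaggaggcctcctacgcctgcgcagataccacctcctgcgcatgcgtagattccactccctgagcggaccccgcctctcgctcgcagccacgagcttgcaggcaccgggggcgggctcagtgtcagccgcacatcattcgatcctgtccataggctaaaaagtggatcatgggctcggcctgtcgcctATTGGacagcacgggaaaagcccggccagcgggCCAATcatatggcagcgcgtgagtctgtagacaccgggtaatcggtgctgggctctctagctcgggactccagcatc
Idi1 (chr13:8885356-8885655, plus strand): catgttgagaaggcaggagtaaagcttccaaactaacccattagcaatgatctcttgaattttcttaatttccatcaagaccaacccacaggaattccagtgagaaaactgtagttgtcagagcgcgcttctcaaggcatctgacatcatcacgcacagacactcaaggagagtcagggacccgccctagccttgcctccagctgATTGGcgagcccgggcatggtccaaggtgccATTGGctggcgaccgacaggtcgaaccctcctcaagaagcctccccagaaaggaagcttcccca
The sterol element occurred once among these members, in Hmgcs1 at 137 bases before the start, as TCACCCCAC; 1.44% of the 27025 genes with a window hold it. An NF-Y box was found in 5 of 6 members, against 41.1% of all genes. Pmvk, counted among the 5, has 2 windows, of which 1 holds a box. Mvk held 5 boxes, which 0.311% of genes reach in a window, and Hmgcs1 held 4, which 1.22% reach. The Sp1 box GGGCGG was present in 5 of 6 members and in 38.2% of genes, and the E-box CACGTG in 0 of 6 and in 8.09%. A match is a run of letters, not a measured binding site. Only these exact letters were searched, within these windows, so a missing match does not show that an element is absent.

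In fasted wild-type liver the arm fell: 6 of the 7 measured genes passed the test downward and none upward, where 3.15% of all genes fell, 1.87% rose and 5.02% changed in either direction. The test is limma's moderated test in 1 fit of the 6 arrays, with Benjamini-Hochberg adjustment over all genes, and a gene is said to fall or rise at an adjusted p under 0.05. The median log2 difference of the 7 genes was -1.43, beside 0.02 over all genes. On both fasted wild-type arrays every one of the 7 read lower than on both fed arrays, a state seen in 23.7% of all genes. The adjoining steps Idi1 and Fdps had the deepest differences, with 95% intervals that did not overlap those of the other 5 members; differences between members were not tested. In bulk liver, fewer cells of a type and less RNA per cell cannot be told apart. Hepatocyte markers had a median log2 difference of 0.08 with 0 of 10 past the test, at a mean level of 14.38 to 14.49 on the fed and 14.49 to 14.63 on the fasted wild-type arrays. Kupffer cell markers were positive in 9 of 9 cases with 0 past the test (median 0.43), at mean levels of 8.76 to 8.82 and 9.12 to 9.41. Of 6 stellate cell and fibroblast markers 3 fell and 1 rose, at mean levels of 8.52 to 8.67 and 7.96 to 8.03, with Col1a1 at or under the array medians. Of 7 sinusoidal endothelial markers 1 rose, at mean levels of 8.19 to 8.26 and 8.58 to 8.60. The part of the latter lists in these results was not tested.

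**Figure D1:**
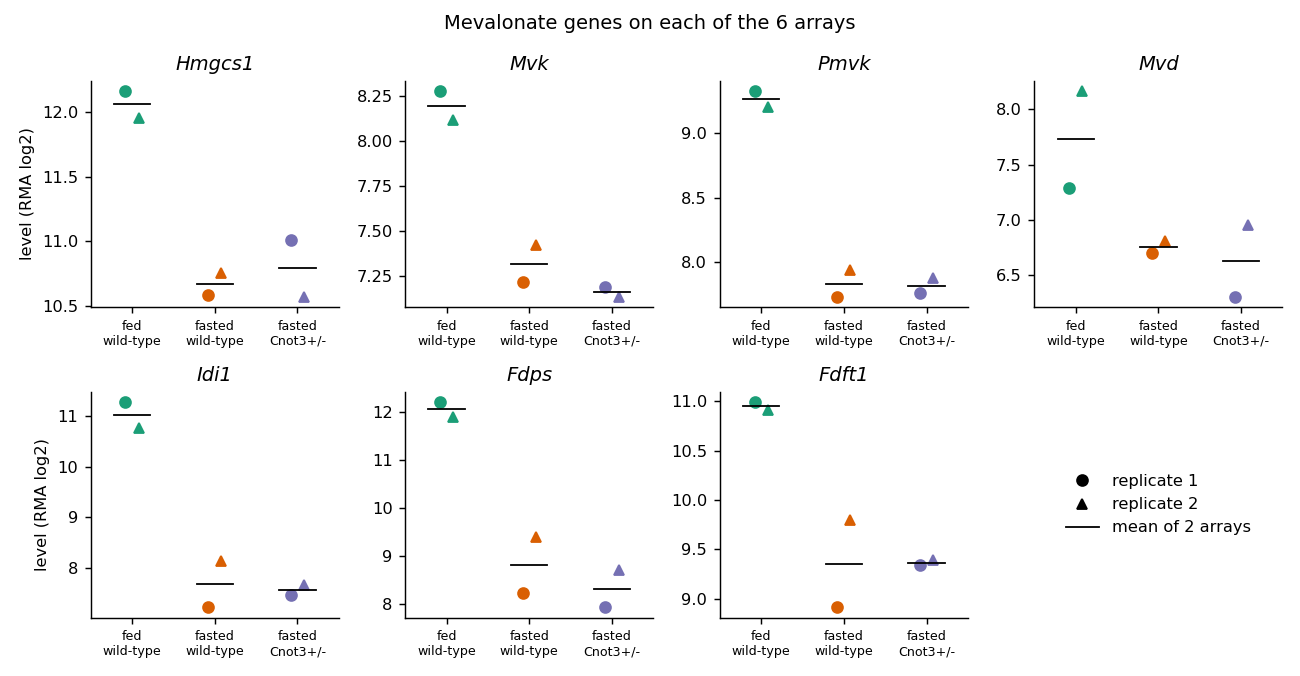
Level of each mevalonate gene (brightest probe set, RMA log2) on the 6 arrays, with circles for replicate 1, triangles for replicate 2 and a bar for the mean of 2 arrays; each panel has its own axis, which does not start at 0. The fed arrays lie above all 4 fasted arrays in every panel, and Mvd has the widest gap between fed arrays (7.29 and 8.16).

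Hmgcs1 encodes the cytosolic HMG-CoA synthase, the first step of the arm that was measured here. It read 12.16 and 11.96 in fed liver, 10.59 and 10.75 in fasted wild-type liver, and 11.01 and 10.57 in fasted liver labelled Cnot3+/-. Both fasted groups were low, and they overlapped each other. The wild-type fall was 2.62-fold (log2 -1.39, SE 0.17, limma adjusted p = 0.00749, n = 2 against 2 arrays). That call was lost when either fasted wild-type array was left out (adjusted p = 0.0812 without replicate 1 and 0.0503 without replicate 2).

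Mvk, mevalonate kinase, adds the first phosphate. Its levels were 8.28 and 8.11 in fed liver, 7.22 and 7.42 in fasted wild-type liver, and 7.19 and 7.14 on the arrays labelled Cnot3+/-. All 4 fasted arrays sat below the fed pair, and the 2 fasted groups did not overlap. Mvk fell 1.84-fold (log2 -0.88, SE 0.13, limma adjusted p = 0.014), the smallest difference in the arm. Its call did not hold with any array of this comparison left out: adjusted p was 0.0697 or 0.0531 when fed replicate 1 or 2 was dropped, and 0.121 or 0.0594 for fasted wild-type replicate 1 or 2. The mean over both Mvk probe sets did not pass either (-0.53, adjusted p = 0.0983).

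Pmvk, phosphomevalonate kinase, adds the next phosphate. It stood at 9.32 and 9.20 in fed liver, at 7.73 and 7.94 after the wild-type fast, and at 7.76 and 7.87 in the Cnot3+/- group. Replicates lay close together in every group, and the 2 fasted groups overlapped. Pmvk fell 2.69-fold (log2 -1.43, SE 0.13, limma adjusted p = 0.00308), and the call held with each array of this comparison left out in turn.

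Mvd, the decarboxylase that makes isopentenyl diphosphate, was the member that did not pass. Fed levels were 7.29 and 8.16, fasted wild-type levels 6.70 and 6.81, and those labelled Cnot3+/- 6.31 and 6.96. The fed arrays were far apart, and the lower of them was still above all 4 fasted arrays. The log2 difference was -0.97 (SE 0.31, 95% interval -1.70 to -0.25, limma adjusted p = 0.137). Dropping fed replicate 2 gave -0.54, and dropping fed replicate 1 gave -1.41.

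Idi1 encodes the isomerase that turns isopentenyl into dimethylallyl diphosphate. Fed liver read 11.27 and 10.76, fasted wild-type liver 7.23 and 8.13, and the Cnot3+/- group 7.47 and 7.67. The fasted wild-type pair enclosed the Cnot3+/- pair. Idi1 fell 10.1-fold (log2 -3.33, SE 0.30, 95% interval -4.04 to -2.63, limma adjusted p = 0.00308). The call held with each array of this comparison left out in turn.

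Fdps is farnesyl diphosphate synthase, the branch point towards sterols and prenyl groups. It went from 12.22 and 11.91 in fed liver to 8.21 and 9.38 in fasted wild-type liver, and it was at 7.92 and 8.71 on the arrays labelled Cnot3+/-. Each fasted pair was spread widely, and the pairs overlapped. Fdps fell 9.61-fold (log2 -3.26, SE 0.40, 95% interval -4.19 to -2.33, limma adjusted p = 0.00674). That call held with each array of this comparison left out in turn.

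Fdft1, squalene synthase, commits farnesyl diphosphate to sterols. Its levels ran from 10.99 and 10.91 in fed liver to 8.91 and 9.80 in fasted wild-type liver, with 9.34 and 9.39 on the arrays labelled Cnot3+/-. As for Idi1, the fasted wild-type pair enclosed the Cnot3+/- pair. Fdft1 fell 3.02-fold (log2 -1.59, SE 0.26, limma adjusted p = 0.02). The call was lost when either fed array was dropped (adjusted p = 0.085 for replicate 1 and 0.0882 for replicate 2) and with the mean over all its probe sets (-0.68, 0.0646).

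Most bright probe sets of the members fell, and none of the dim ones did. The 7 genes have 18 single-gene probe sets, of which 14 read above the array medians on all 6 arrays. Fitted singly, with p adjusted over 45037 probe sets, 11 of these 14 fell on fasting. Over all probe sets, dim ones included, 1.19% fell. With 1 set a gene, 501 of the 9096 genes brighter than the median gene fell when tested alone. The 14 sets come from 7 genes, so they are not independent of each other. The remaining 4 dim sets gave differences from -0.52 to 0.19 with 0 past the test. The next brightest probe set of Idi1 differed by -4.09 (SE 0.31, limma adjusted p = 0.00603). Hmgcs1 had 4 bright sets, with differences from -1.52 to -1.39, and its main set carries the suffix _x_at, which marks probes that can bind other transcripts. The main set of Fdft1 carries the same suffix, and its next brightest set, without it, differed by -1.45 (limma adjusted p = 0.0463).

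The values of Fdps, Mvk and Fdft1 depended on the choice of probe set. Of the 4 Fdft1 sets the 2 dim ones differed by 0.12 and 0.19, and they enter the mean given above. The other Fdps set read 3.84 and 3.72 in fed liver, 3.71 and 3.93 in fasted wild-type liver, and 3.67 and 3.89 on the arrays labelled Cnot3+/-. All 6 values lie under the array medians, so nothing shows that this set measured Fdps above background; its log2 difference was 0.04. The dimmer Mvk set, in contrast, read above the medians throughout, at 7.59 and 7.32 in fed and 7.10 and 7.42 in fasted wild-type liver. Those groups overlapped, and the difference was -0.19 (SE 0.20, limma adjusted p = 0.754). Both bright sets of Mvd missed the threshold, with -0.97 and -1.46 (limma adjusted p = 0.222 and 0.106).

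**Figure D2:**
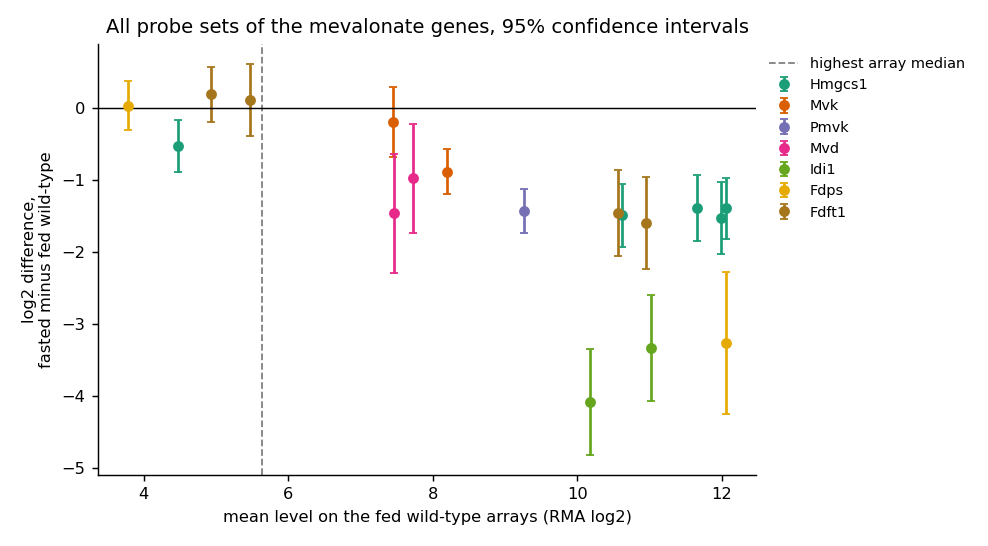
Log2 difference between fasted and fed wild-type liver (points, with 95% confidence intervals) for all 18 probe sets of the 7 genes against their mean fed level, each probe set fitted singly; the dashed line is the highest array median, 5.64. The 4 probe sets left of the line lie between -0.52 and 0.19, and the 14 right of it run from -4.09 to -0.19.

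Between the fasted groups, no member passed the test, and no gene at all did (limma, 0.0% of 18193 genes, and likewise 0 when the variance was given a trend). Before adjustment, 5.56% of genes (1011) had p under 0.05, no member among them. Of the 7 differences 5 were negative and 2 positive, where 9176 of all 18193 genes were negative. The median was -0.11, beside -0.00175 over all genes. Mvk alone had groups that did not overlap, with both Cnot3+/- arrays lower, as was true of 18.5% of all genes; its log2 difference was -0.16 (SE 0.13, limma adjusted p = 0.886). The intervals say how much could have been missed in this fit. Deviations of same-numbered arrays correlated over genes between the fasted groups (r = 0.454), and the fit leaves this out. For Pmvk the level on the arrays labelled Cnot3+/- was 0.988 of wild-type, with a 95% interval from 0.800 to 1.22. For Hmgcs1 the ratio was 1.09 (interval 0.818 to 1.44) and for Mvk 0.898 (0.726 to 1.11), each from the main probe set alone. The other bright Hmgcs1 sets, fitted singly, had log2 differences of 0.22, -0.07 and -0.39, the last with a 95% interval of -0.83 to 0.05. The dimmer Mvk set had -0.38 (-0.87 to 0.11). Wider intervals held for Idi1, at 0.926 (0.570 to 1.51), for Mvd, at 0.917 (0.556 to 1.51), and for Fdft1, at 1.01 (0.659 to 1.54). The widest was that of Fdps, at 0.716 (0.376 to 1.36; log2 -0.48, SE 0.40, limma adjusted p = 0.882). Its log2 difference was 0.10 when fasted wild-type replicate 2 was dropped and -1.07 when replicate 1 was. Kupffer cell markers were higher on the arrays labelled Cnot3+/- in 9 of 9 cases (median log2 0.44, 0 past the test, mean levels of 9.53 to 9.85), while hepatocyte markers had a median of -0.02; their part in the member values was not tested.

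**Figure D3:**
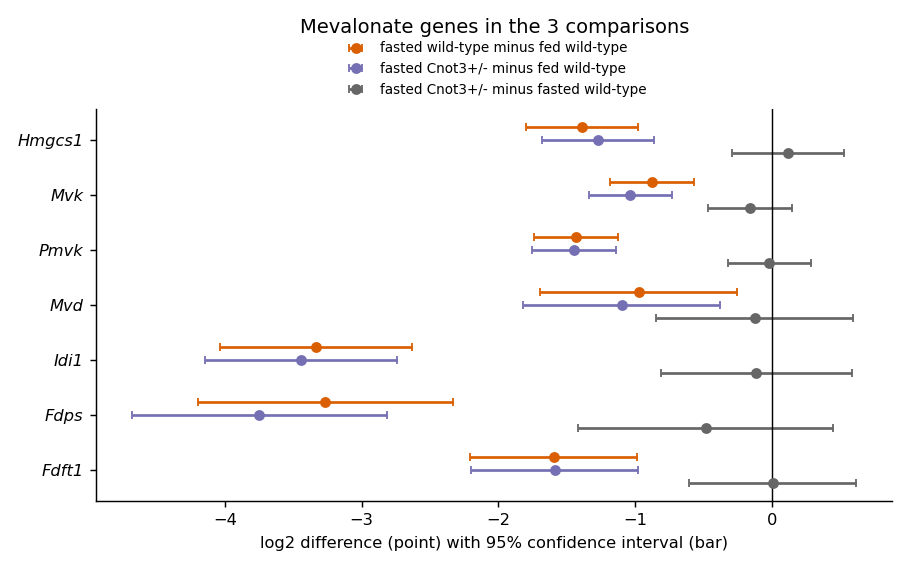
Log2 differences of the 7 mevalonate genes (points) with 95% confidence intervals (bars) in the 3 comparisons. Both comparisons with fed liver lie left of 0 for every gene, from -3.75 to -0.88, and all intervals between the fasted groups cross 0.

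Set against fed wild-type, the fasted liver labelled Cnot3+/- had the arm low as well. Again 6 of 7 members fell and none rose, where 3.68% of all genes fell, 3.88% rose and 7.56% changed in either direction. All 7 had non-overlapping groups in that direction, as did 23.4% of genes. The median log2 difference was -1.45, beside 0.00257 over all genes. This comparison uses the same fed arrays as the wild-type one, so the values are given side by side and are not independent. Fdps fell 13.4-fold here (log2 -3.75, SE 0.40, limma adjusted p = 0.00335) and Idi1 10.9-fold (-3.44, SE 0.30, 0.00232). The log2 difference was -1.45 for Pmvk, -1.27 for Hmgcs1 and -1.03 for Mvk (limma adjusted p = 0.00242, 0.00778 and 0.00609). The dimmer Mvk set, fitted singly, did not pass (-0.57, SE 0.20, limma adjusted p = 0.23). The Fdps set under the array medians differed by -0.0048. Fdft1 fell by 1.59 (limma adjusted p = 0.0147), a call lost with any of the 4 arrays left out (0.0543 to 0.0686). Mvd differed by -1.10 (limma adjusted p = 0.0829). It passed with the mean over its probe sets (-1.29, limma adjusted p = 0.04998) and with the next brightest set (-1.48, 0.0412). It also passed after centring on the brighter genes (-1.13, 0.0437), but not after cyclic loess (0.0814) or with a variance trend (0.0712). The log2 difference was -1.53 and -0.66 without fed replicate 1 and 2, and -0.77 and -1.42 without Cnot3+/- replicate 1 and 2. In this comparison 5 of 9 Kupffer cell markers rose and 0 of 10 hepatocyte markers passed the test. Of 6 stellate cell and fibroblast markers 2 fell and 1 rose, and of 7 sinusoidal endothelial markers 1 rose; their part in these values was not tested.

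The replicates of a group differed more for some members than for others. On fasted wild-type replicate 2 all 7 genes read higher than on replicate 1, where 54.3% of all genes did. The gap was 0.12 for Mvd, 0.89 for Fdft1, 0.90 for Idi1 and 1.17 for Fdps. On the fed arrays 1 of 7, Mvd, was higher on replicate 2, by 0.87, where 50.9% of all genes were higher. The lowest gap was that of Idi1, at -0.51. On the arrays labelled Cnot3+/- 5 of 7 were higher on replicate 2, as were 56.4% of all genes. Hmgcs1 at -0.44 and Mvk at -0.05 went the other way. Sqle, the first enzyme after the arm, named after its values were seen, had the same direction of gap in both fasted groups, at 1.63 and 1.49.

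After squalene most of the measured sterol enzymes fell as well. Of 11 measured genes 7 fell and none rose, where 3.15% of all genes fell and 1.87% rose. Their median log2 difference was -1.66, and the list was chosen with earlier results of these data known. The count was 4 when fasted wild-type replicate 1 was dropped. Lss, lanosterol synthase, closes the sterol rings and differed by -1.80 (SE 0.14, limma adjusted p = 0.00212). Nsdhl, which helps remove the ring methyl groups, fell 8.03-fold (SE 0.25 on the log2 scale, limma adjusted p = 0.00269). Late steps differed by -1.66 for the reductase Dhcr7 and -1.55 for the desaturase Sc5d (limma adjusted p = 0.00254 and 0.00483). Sqle (-1.96), Ebp (-0.48) and Tm7sf2 (-0.26), named after their values were seen, did not pass (limma adjusted p = 0.123, 0.0631 and 0.468). Hsd17b7, named after its values were seen, had the 1 positive difference, at 0.03 (95% interval -0.25 to 0.32). Whether this stretch differs from the mevalonate arm was not tested. On the arrays labelled Cnot3+/-, 3.68% of all genes fell and 3.88% rose against fed liver, and no gene passed between the fasted groups. Against fed liver, 8 of the 11 fell on the arrays labelled Cnot3+/- (5 when either fed array was dropped), and between the fasted groups 0 passed.

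**Figure D4:**
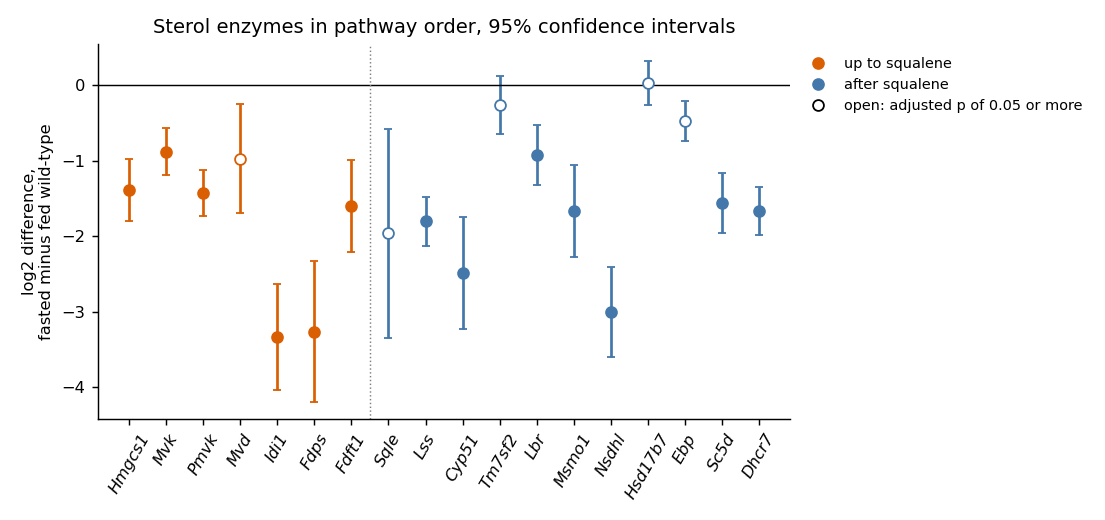
Log2 difference between fasted and fed wild-type liver (points) with 95% confidence intervals (bars) for 18 sterol enzymes in pathway order, the mevalonate arm left of the dotted line. Filled points passed the test, and of the 7 genes of the arm the open point is Mvd.

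Among 9 measured regulators of sterol synthesis, 3 fell and 1 rose on fasting, where 3.15% of all genes fell and 1.87% rose. Their median log2 difference was -0.10. Srebf2, which encodes the SREBP most tied to sterol enzymes and is named after its values were seen, read 8.94 ± 0.09 in fed and 8.84 ± 0.13 in fasted wild-type liver (mean ± SD, n = 2 arrays each), a difference of -0.10 (95% interval -0.41 to 0.21, limma adjusted p = 0.756). Srebf1 fell by 4.67 (SE 0.19, limma adjusted p = 0.000252). The 2 Insig genes moved in opposite directions. Insig1, itself a sterol-responsive gene, fell by 1.63 (SE 0.20, limma adjusted p = 0.00657), whereas Insig2 rose from 11.50 ± 0.04 to 13.17 ± 0.11 (log2 1.67, SE 0.12, limma adjusted p = 0.0018). Stard4, a cytosolic sterol carrier, fell by 2.15 (SE 0.26, limma adjusted p = 0.00711). Between the fasted groups it differed by -0.70 (95% interval -1.32 to -0.08, limma adjusted p = 0.863). Of the 9 regulators it was the 1 with a limma p under 0.05 before adjustment there, as were 5.56% of all genes.

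Genes that use the arm's products outside sterols were also read. Among 11 measured for prenylation, dolichol, ubiquinone and tRNA isopentenylation, 0 fell and 1 rose, with a median of -0.20. Over all genes 3.15% fell and 1.87% rose. The gene that rose was Rabggtb, a subunit of the enzyme that prenylates Rab proteins (log2 0.88, SE 0.16, limma adjusted p = 0.0286). Coq2, the prenyltransferase of ubiquinone synthesis, differed by -0.42 (limma adjusted p = 0.107). Ggps1, which extends farnesyl to geranylgeranyl diphosphate, differed by -0.26 (95% interval -0.91 to 0.39, limma adjusted p = 0.697).

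Relatives of the arm's enzymes in fat oxidation and ketone metabolism, with the paralog Idi2, were compared as well. Of 6 measured genes 1 rose and none fell, where 1.87% of all genes rose and 3.15% fell. All 6 differences were positive, as were 9954 of 18193 over all genes, and their median was 0.34. Hadhb, the thiolase subunit of mitochondrial fatty acid oxidation, rose by 0.86 (SE 0.14, limma adjusted p = 0.02). Acat1, the mitochondrial acetoacetyl-CoA thiolase, read 13.23 ± 0.16 in fed and 13.60 ± 0.13 in fasted wild-type liver (mean ± SD, n = 2 arrays each; log2 0.38, limma adjusted p = 0.213). Idi2, a paralog of Idi1, read between 3.91 and 4.33 on the 6 arrays, under the array medians. Nothing shows that it was above background, yet it is counted among the 6 positive differences and enters their median.

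The genes lying next to the members were compared, as position plays no part in the choice of members. Each member's next protein-coding gene on either side was taken from RefSeq's gene order, which gives 16 neighbours, 14 of them measured. Of the 14, 2 fell on fasting and none rose, beside 3.15% of all genes, and their median log2 difference was -0.03. One was Mmab, beside Mvk, which encodes the adenosyltransferase that makes coenzyme B12. Mmab read 8.17 and 8.64 in fed liver, 6.84 and 7.15 in fasted wild-type liver, and 7.04 and 6.73 on the arrays labelled Cnot3+/-. It fell by 1.41 (SE 0.20, limma adjusted p = 0.0124), beside 0.88 for Mvk. The genes run in opposite directions, their annotated starts are 242 bases apart, and their start windows share 259 bases, and the 5 NF-Y boxes printed above lie between the starts, from 14 to 173 bases before that of Mvk.

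The other neighbour that fell was Pklr, liver pyruvate kinase, next to Fdps. It read 10.79 and 10.52 in fed liver, 8.62 and 9.46 in fasted wild-type liver, and 8.72 and 9.29 on the arrays labelled Cnot3+/- (log2 -1.62, SE 0.30, limma adjusted p = 0.0286, fasted against fed wild-type). The remaining 12 measured neighbours had differences from -0.40 to 0.38. Among them Nim1k, Idi2, Fam222a and Kcnn3 read under the array medians on every array, so nothing shows that they were above background. They are counted among the measured neighbours above and enter their median. Fdps and Pmvk share chromosome 3, with 27 protein-coding genes between them. Of these 24 were measured, 3 fell and none rose, where 3.15% of all genes fell and 1.87% rose. Their median was -0.07. The 3, named after their values were seen, were Pklr, Cks1b (-1.43, SE 0.20) and Krtcap2 (-0.87, SE 0.18).

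**Figure D5:**
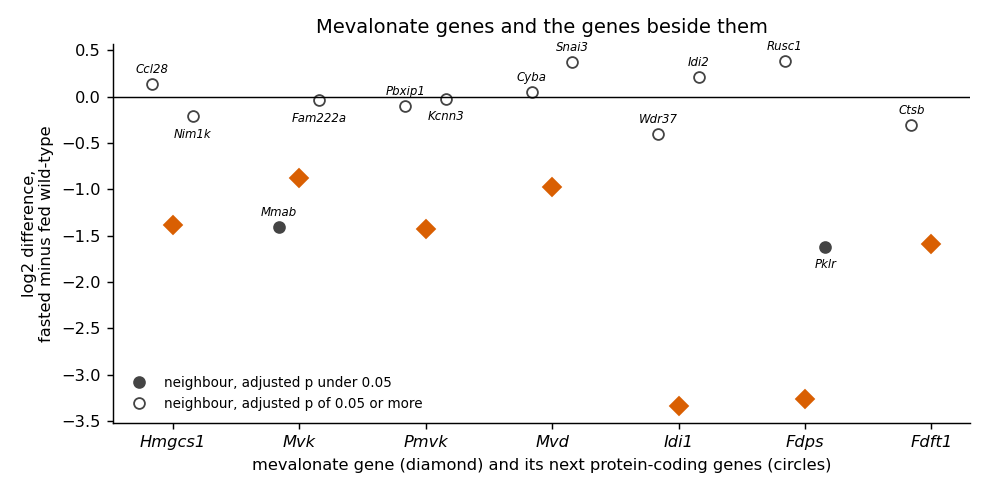
Log2 difference between fasted and fed wild-type liver for each mevalonate gene (diamonds) and the measured protein-coding genes next to it on the chromosome (circles, filled where the adjusted p was under 0.05). Mmab at -1.41 and Pklr at -1.62 are the filled circles, and the others lie between -0.40 and 0.38. Of the open circles, Nim1k, Idi2, Fam222a and Kcnn3 read under the array medians on every array.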

How the data were processed

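The deposited values are log2 levels per probe set, computed by the authors as RMA summaries, per the submitters' processing notes (no version given). Per the labels' protocols, each array began with 10 ug of total RNA, turned into biotinylated cRNA. Both arrays of each group are titled as biological replicates. The deposited table was used without further normalisation. It holds 45101 probe sets, of which 64 are controls, 34945 name 1 gene, 932 name several and 9160 have no gene in the annotation used. Symbols were updated through gene IDs, and 18032 of 18193 genes matched the RefSeq table, which served for names and gene order. For each gene the single-gene probe set with the highest mean over 6 arrays was used.

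Genes were tested with limma 3.58.1 (R 4.3.3), with Benjamini-Hochberg adjustment, in 1 fit with 3 group means (residual df 3, prior df 4.24). SE is the moderated standard error, intervals are 95%, and SD is over 2 arrays. The procedure was tested on simulated data. The members, lists and rules were chosen with earlier results of these data known. All members were named, as were up to 4 genes of each list by smallest fasting p, with Acat1, Idi2 and Ggps1 always. Of the listed genes, those not on the arrays' annotation were not analysed here. Alternatives were another probe set rule, normalisation, filter, variance model, sample set, replicate block and leaving out each array; fitting every probe set singly was added after the data were seen. Figures used matplotlib 3.10.9 on Python 3.11.15.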

Additional observations from a re-analysis of the deposited data

How the results depend on the processing

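All alternatives named under processing were run. For the members, the number past the test on fasting was 6, and 4 to 7 under the other settings: 4 with the mean over probe sets (Fdft1 and Mvk lost, adjusted p = 0.0646 and 0.0983), 4 with the next brightest probe sets and 4 without any 1 array. The median ran from -1.53 to -1.26. In the Cnot3+/- group against fed liver the number of members past the test was 6, and 5 to 7 under the settings other than leaving out an array. The labels state no pairing of replicate numbers. Deviations of same-numbered arrays correlated over genes at r = 0.454 between the fasted groups, but at 0.0447 and -0.00929 with the fed group. The numbers were therefore not taken to pair the arrays. The intervals given between the fasted groups come from a fit that leaves out this shared deviation, and its source was not tested. With the replicate block, 7 members passed in each comparison with fed liver, Mvd included (adjusted p = 0.0361 and 0.0202), and 0 between the fasted groups; after squalene it gave 8 and 9 genes in place of 7 and 8. Without 1 array the count after squalene was 4 to 6 on fasting (4 without fasted wild-type replicate 1) and 5 to 7 in the liver labelled Cnot3+/- (5 without fed replicate 1 and without fed replicate 2). Signs turned for Fdps on fasting with its dim probe set (0.040), and between the fasted groups for Fdft1 with the mean over probe sets (-0.13), without _s_at and _x_at sets or with the next brightest set (-0.0043 in each), after cyclic loess (-0.016) and after centring (-0.059), and for Hmgcs1 with the mean over probe sets (-0.0041). With single arrays left out, those genotype differences ran from -0.44 to 0.45 for Fdft1, -1.07 to 0.10 for Fdps, -0.56 to 0.34 for Idi1, -0.12 to 0.085 for Pmvk, -0.10 to 0.34 for Hmgcs1 and -0.45 to 0.20 for Mvd. The cause of these shifts was not tested, and none of the genotype values was past the test. Over all genes, 913 changed on fasting, 1206 with the replicate block, 1033 with only the 4 arrays compared, 1020 after centring, 494 with every probe set fitted singly and 137 to 458 without 1 array (458 and 287 without fed replicate 1 and 2, 137 and 193 without fasted wild-type replicate 1 and 2). Against fed liver, 1375 genes changed in the Cnot3+/- group, 1708 with the replicate block, 857 with only the 4 arrays compared, 816 with every probe set fitted singly, 743 and 597 without fed replicate 1 and 2, and 929 and 696 without Cnot3+/- replicate 1 and 2. Between the fasted groups 0 genes passed, but 1 and 2 did without Cnot3+/- replicate 1 and 2.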

Other observations

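Genes outside the list were ranked by how closely their levels followed the mean profile of the 7 measured members over the 6 arrays. Each gene's levels were taken relative to their own mean, the measure is the root mean square difference in log2 units, and 9089 genes brighter than the median gene were compared. The 5 nearest were Tmem14a (0.102), Jpt2 (0.107), Rdh11 (0.121), Gamt (0.139) and Tmtc4 (0.16). This is a description over 6 arrays, and says nothing of shared function or control. Rdh11, a retinol dehydrogenase, read 9.18 and 8.92 in fed liver, 7.03 and 7.72 in fasted wild-type liver, and 7.15 and 7.47 on the arrays labelled Cnot3+/-. Gamt, which carries out the last step of creatine synthesis, read 11.87 and 12.07, then 10.16 and 10.59, then 10.18 and 10.22 in the same order of groups. On both genes the fed arrays lay above all 4 fasted arrays. Of the 11 measured enzymes after squalene, Msmo1 ranked 6th (0.165), Sc5d 8th (0.172), Lss 9th (0.182) and Dhcr7 18th (0.215), and the other 7 lay from 0.411 (Cyp51) to 0.924 (Hsd17b7). The measured members lay between 0.188 (Fdft1) and 0.82 (Fdps) from their own mean profile.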
